A study of Mus musculus with 18 samples.

Results

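The step from 0.3 µM to 1.0 µM MG132 in T-N1G cells was measured by setting 3 RNA-seq libraries at 1.0 µM against 3 at 0.3 µM, which are 6 of the 18 libraries of the series. All 18 came from mouse embryonic fibroblasts with both alleles of Maff, Mafg and Mafk, the small Maf genes, deleted, and mock cells carry these deletions too. T-N1G cells express in addition T-N1G, in which Nrf1, a transcription factor encoded by Nfe2l1, and MafG are tethered as one heterodimer (the genotype labels spell it T-NG1). The 6 groups were T-N1G cells and mock cells, each after 12 h with 1.0 µM MG132, 0.3 µM MG132 or vehicle, with 3 libraries per group. The sources used here do not give the promoter that drives the fusion, or say whether either line is a clone or a pool. They do not say either that the 3 libraries of a group are separate cultures, so p-values measure only how these libraries vary, and that may be technical. The question put to the data was what the higher dose added to the lower one and what it reversed.

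MG132 blocks the proteolytic sites of the proteasome, the protease that degrades proteins tagged with ubiquitin. When the proteasome is inhibited, Nrf1, which is otherwise made at the endoplasmic reticulum and degraded, is processed and enters the nucleus, where it pairs with a small Maf protein and raises transcription of the proteasome subunit genes. Undegraded and misfolded proteins also release HSF1, the transcription factor of the heat shock genes, and stress kinases start the ATF4 programme of amino acid and redox genes. Because the cells lack small Maf proteins, the tethered fusion carries the partner that Nrf1 needs.

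Depth was 18164380 to 19095522 fragments per library at 1.0 µM and 20507583 to 20933082 at 0.3 µM. Levels are given as CPM, the usual scaling of fragment counts to library size, here after TMM normalization, with the 3 libraries of a group in the order of their numbers. Libraries of T-N1G cells at 1.0 µM varied more among themselves, with a median SD of 0.181 log2 CPM over 7832 genes, against 0.0776 at 0.3 µM. Fibroblast markers summed to 9910 to 10702 CPM at 1.0 µM and 8584 to 9303 CPM at 0.3 µM. Of 13 of them tested, Fn1 rose (7.7%, against 29.3% of all genes) and 5 fell at the step (38.5%, against 30.8%). Cd248 and S100a4 fell most, and Lum was under 1 CPM in all 6 libraries. Markers of other cell types were low, with sums of 6.20 to 10.6 CPM at 1.0 µM and 3.81 to 4.40 CPM at 0.3 µM for leukocytes, 26.5 to 41.8 and 6.63 to 9.74 CPM for endothelium, 66.3 to 90.5 and 66.9 to 75.3 CPM for epithelium, 26.0 to 36.1 and 38.4 to 43.4 CPM for muscle and fat, and 39.1 to 47.2 and 48.4 to 52.1 CPM for neural cells. S100a8, Myog and Snap25 were at 0 in all 6 libraries. Ptprc, Tie1, Epcam, Myod1 and Rbfox3 stayed under 1 CPM in all 6. All 6 endothelial markers tested rose, as did 2 of 3 leukocyte and 5 of 7 epithelial markers, against 29.3% of all genes. Of 6 muscle and fat markers 2 rose and 3 fell, and of 4 neural markers 3 rose and 1 fell, with 1 rise called without 1.0 µM library 3. The part of other cell types in the results was not tested. In bulk RNA, fewer cells of a type and less RNA per cell cannot be told apart.

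Of 13258 genes tested across the 18 libraries, 3878 (29.3%) rose and 4078 (30.8%) fell at the step at an adjusted p under 0.05, so that 60.0% moved, and the median log2 change over all of them was -0.01. Large changes were mostly rises. A rise of 2-fold or more was called for 1422 genes (10.7%) and a fall of that size for 487 (3.67%). At 4-fold or more there were 455 rises (3.43%) and 31 falls (0.234%). In 7914 genes (59.7%) the 3 libraries at 1.0 µM all lay on one side of the 3 at 0.3 µM. For comparison, 0.3 µM against vehicle moved 3858 genes up (29.1%) and 4014 down (30.3%) in the same cells. In fits of only the 2 groups compared, 3139 rose and 3120 fell at the step, and 4312 rose and 4376 fell at 0.3 µM against vehicle. That comparison shares the 0.3 µM libraries with the step, so the values of both are given side by side and no overlap of their genes is counted.

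**Figure D1:**
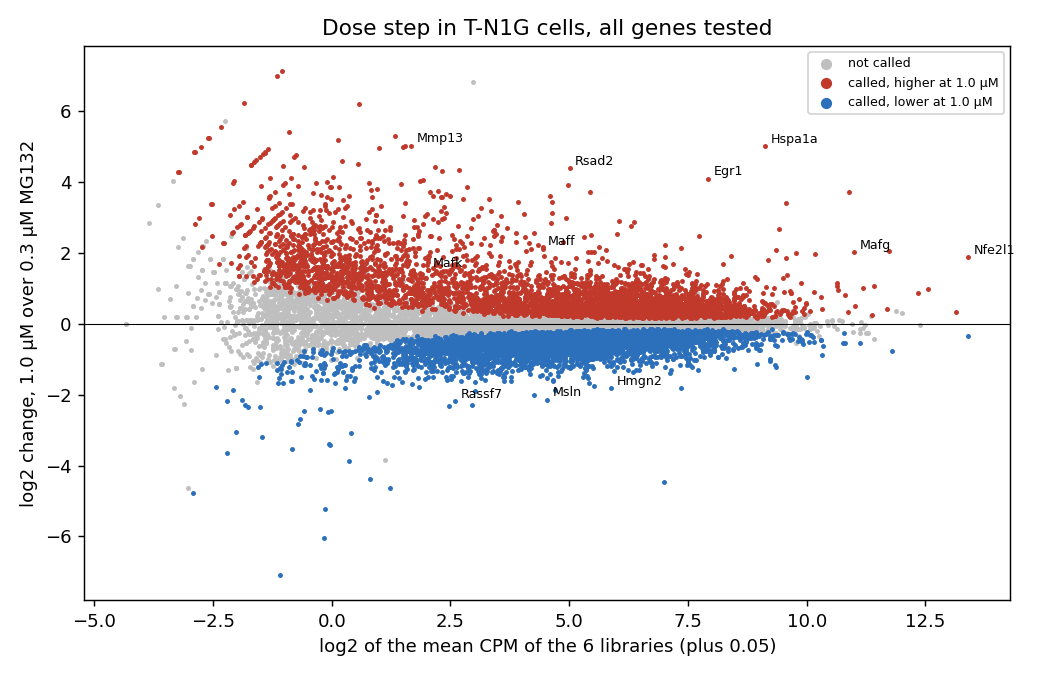
Each point is 1 of the 13258 genes, with its log2 change from 0.3 µM to 1.0 µM MG132 in T-N1G cells on the vertical axis and the log2 of its mean CPM over the 6 libraries on the horizontal axis. Red points were called higher at 1.0 µM (3878 genes), blue points lower (4078 genes) and grey points were not called, and Hspa1a stands near 5.01 while Nfe2l1 lies far to the right at 1.88.

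Sequences just before and after the start of 7 genes are shown, to show the letters around the start of genes named in the results on heat shock, the stress response, proteases, interferon and the cell cycle. They were chosen for holding a known motif. Whether a motif bears on a gene's change was not tested. Each runs from 250 bases before to 50 bases after the gene start, is taken from RefSeq (build GRCm38.p6) and reads 5′ to 3′ along the gene. Capitals mark the letters of a known motif found there on either strand. Hspe1, the mitochondrial co-chaperonin (chr1:55087898-55088197, plus strand), and Chordc1, an HSP90 co-chaperone (chr9:18292017-18292316, plus strand), hold overlapping matches to the heat shock element (GAA, TTC and GAA, or TTC, GAA and TTC, with 2 bases between units). Both rose at the step, by 0.92 and 0.95 on the log2 scale.
Hspe1: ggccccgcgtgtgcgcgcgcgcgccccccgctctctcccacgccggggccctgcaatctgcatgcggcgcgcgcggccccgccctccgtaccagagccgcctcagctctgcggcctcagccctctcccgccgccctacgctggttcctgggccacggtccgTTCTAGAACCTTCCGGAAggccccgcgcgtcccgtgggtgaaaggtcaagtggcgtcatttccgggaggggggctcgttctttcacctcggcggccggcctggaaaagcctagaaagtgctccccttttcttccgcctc
Chordc1: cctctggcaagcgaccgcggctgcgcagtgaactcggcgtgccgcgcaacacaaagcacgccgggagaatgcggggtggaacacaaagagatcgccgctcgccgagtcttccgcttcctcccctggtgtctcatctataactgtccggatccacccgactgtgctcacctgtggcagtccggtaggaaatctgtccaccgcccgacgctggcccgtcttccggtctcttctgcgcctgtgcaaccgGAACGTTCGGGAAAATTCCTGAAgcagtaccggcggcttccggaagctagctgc
Atf3, a stress-induced transcription factor (chr1:191183284-191183583, minus strand), and Pycr1, an enzyme of proline synthesis (chr11:120643699-120643998, minus strand), both hold the core of the element that ATF4 binds (TGATGNAA). They moved in opposite directions, Atf3 up by 1.88 and Pycr1 down, with a log2 change of -1.08.
Atf3: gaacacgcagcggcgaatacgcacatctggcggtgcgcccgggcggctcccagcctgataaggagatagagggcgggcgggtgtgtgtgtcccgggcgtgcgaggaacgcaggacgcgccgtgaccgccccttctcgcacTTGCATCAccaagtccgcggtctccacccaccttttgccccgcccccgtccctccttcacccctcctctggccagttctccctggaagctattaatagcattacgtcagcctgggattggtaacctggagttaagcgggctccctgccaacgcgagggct
Pycr1: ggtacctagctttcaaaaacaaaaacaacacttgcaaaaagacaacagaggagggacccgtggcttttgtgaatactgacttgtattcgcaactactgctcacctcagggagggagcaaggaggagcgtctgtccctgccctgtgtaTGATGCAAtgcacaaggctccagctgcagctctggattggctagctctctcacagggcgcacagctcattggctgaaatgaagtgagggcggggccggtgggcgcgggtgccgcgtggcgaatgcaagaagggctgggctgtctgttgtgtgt
Mmp13, a collagenase (chr9:7272264-7272563, plus strand), holds an AP-1 site (TGANTCA) 35 bases before its start. Rsad2, an antiviral enzyme (chr12:26456403-26456702, minus strand), holds an interferon-stimulated response element (a pair of GAAA units with 2 bases between them) that begins 120 bases before the start. Ube2c, the ubiquitin-conjugating enzyme of mitotic exit (chr2:164769679-164769978, plus strand), holds the cell cycle homology region (TTTGAA) 29 bases before the start.
Mmp13: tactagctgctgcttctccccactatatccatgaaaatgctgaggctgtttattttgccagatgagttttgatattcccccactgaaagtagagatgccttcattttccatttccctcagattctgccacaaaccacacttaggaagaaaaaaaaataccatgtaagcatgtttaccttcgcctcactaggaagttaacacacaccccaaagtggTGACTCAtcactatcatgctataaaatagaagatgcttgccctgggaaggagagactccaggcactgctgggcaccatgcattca
Rsad2: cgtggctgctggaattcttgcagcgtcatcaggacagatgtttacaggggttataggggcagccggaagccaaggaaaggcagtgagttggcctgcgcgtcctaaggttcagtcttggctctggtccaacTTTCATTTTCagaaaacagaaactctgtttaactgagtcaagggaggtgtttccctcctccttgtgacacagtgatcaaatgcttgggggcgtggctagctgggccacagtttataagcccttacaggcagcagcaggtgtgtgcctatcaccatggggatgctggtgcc
Ube2c: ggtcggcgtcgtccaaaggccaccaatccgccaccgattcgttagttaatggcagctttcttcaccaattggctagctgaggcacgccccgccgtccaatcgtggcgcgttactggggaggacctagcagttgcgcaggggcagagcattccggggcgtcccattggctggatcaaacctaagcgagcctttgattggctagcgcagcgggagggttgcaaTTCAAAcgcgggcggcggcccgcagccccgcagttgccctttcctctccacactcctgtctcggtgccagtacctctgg
Over the 27025 genes of the RefSeq table, 0.662% held the heat shock element, 4.51% the ATF4 core, 8.97% the AP-1 site, 3.99% the interferon element and 20.2% TTTGAA in windows of 300 bases. A match is a description of letters, not a binding site. Of 26 heat shock genes tested, 21 had a RefSeq window and 4 of these held the heat shock element (19%). Of 28 stress response genes with a window, 7 held the ATF4 core (25.0%). For the interferon and mitotic lists, and for all genes tested (79.2%), under 80% of genes had a window, so shares over those sets are void.

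Transcripts of the tethered factor itself rose again at the higher dose. Nfe2l1 (chr11:96678728-96691282, mm9), which encodes Nrf1, reached 21501, 14845 and 14686 CPM at 1.0 µM, against 4986, 4914 and 4012 CPM at 0.3 µM. The groups lay far apart, and the log2 change was 1.88 ± 0.129 (SE, adjusted p = 1.37e-08), after a first rise of 2.07 from vehicle to 0.3 µM. Mafg (chr11:120489667-120494861, mm9), the other partner in the fusion, had 4238, 2933 and 2701 CPM at 1.0 µM and 886, 863 and 693 CPM at 0.3 µM. Its step was 2.02 ± 0.139 (SE, adjusted p = 1.42e-08). In both genes library 1 was the highest at 1.0 µM, and the share of fragments on the 2 genes together was 1.68% to 2.31% at 1.0 µM and 0.476% to 0.585% at 0.3 µM. Mock cells had 322, 294 and 329 CPM of Nfe2l1 at 1.0 µM and 360, 373 and 393 CPM at 0.3 µM, and their Mafg was at 0.958, 1.32 and 1.01 CPM at 1.0 µM. In T-N1G cells, reads of the fusion and of the cells' own Nfe2l1 cannot be told apart in a count per gene.

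Genes of the deleted small Maf loci also gained fragments. Maff had 45.4, 23.8 and 36.3 CPM at 1.0 µM and 6.84, 8.15 and 9.41 CPM at 0.3 µM, a log2 change of 2.11 ± 0.188 (SE, adjusted p = 1.65e-07). Mafk had 6.69, 5.75 and 5.42 CPM at 1.0 µM and 1.78, 1.87 and 2.58 CPM at 0.3 µM, a log2 change of 1.51 ± 0.197 (SE, adjusted p = 5.94e-06). Their fragments come from what remains of loci labelled as deleted, so they say nothing of a protein. In mock cells the same step changed Maff by 2.76 and Mafk by 1.40, and neither difference between the lines passed the test (adjusted p = 0.114 and 0.822). Of 9 small Maf, CNC and BACH genes tested, 5 rose (55.6%, against 29.3% of all genes) and none fell, with a median of 1.13. Nfe2l1 and Mafg, the genes of the fusion, and Maff and Mafk, of deleted loci, were among the risers. The count is therefore no result on the family as a whole. The other riser was Bach1, a repressor that competes with Nrf factors for their sites, at 313, 215 and 297 CPM at 1.0 µM and 132, 125 and 119 CPM at 0.3 µM (log2 change 1.13). Nfe2l2, which encodes Nrf2, had a step of 0.09 and did not pass the test.

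Core proteasome genes had risen at 0.3 µM, and few of them were called at the step. All 14 subunits of the 20S core were called higher at 0.3 µM than with vehicle, with a median log2 change of 1.25. At the step 3 rose (21.4%, against 29.3% of all genes), 1 fell (7.1%, against 30.8%) and 10 did not pass, with a median of 0.00. The risers were Psmb7 (0.45), Psma6 (0.42) and Psmb4 (0.37), and Psma2 fell by 0.53. Psmb7, a catalytic subunit, had 564, 422 and 380 CPM at 1.0 µM, against 308, 361 and 331 CPM at 0.3 µM. Summed over the 14 genes, levels were 1913 to 2068 CPM with vehicle, 4255 to 4781 CPM at 0.3 µM and 4012 to 5578 CPM at 1.0 µM. Library 1 at 1.0 µM carried the higher values: without it, 3 core subunits rose and 7 fell, with a median of -0.14.

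The 19S regulatory particle unfolds substrates and feeds them to the core. Of its 19 genes, 18 were higher at 0.3 µM than with vehicle, with a median of 1.29. At the step 10 rose (52.6%, against 29.3% of all genes) and none fell, with a median of 0.29. Psmd4, a ubiquitin receptor, had 833, 596 and 594 CPM at 1.0 µM and 469, 486 and 439 CPM at 0.3 µM (log2 change 0.54 ± 0.107, SE, adjusted p = 0.000364). Psmd12 and Psmd7 each changed by 0.50 and the ATPase Psmc2 by 0.41, and in all 4 the groups did not overlap. Without library 1 at 1.0 µM, 8 rose and 1 fell, and the median was 0.12.

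Of 17 factors that assemble or activate the proteasome, 6 rose and 6 fell (35.3% each), near the shares of all genes (29.3% and 30.8%), with a median of -0.09. Psmg3, an assembly chaperone, had 39.1, 26.0 and 30.2 CPM at 1.0 µM and 14.2, 14.7 and 13.6 CPM at 0.3 µM, a log2 change of 1.17 that followed 0.22 at the lower dose (adjusted p = 1.04e-06 for the step). Psmf1, an inhibitor of the core, rose by 0.42, while the activator subunit Psme1 (-0.98) and the ligase Ube3c (-0.73) fell. Without 1.0 µM library 1, or without 0.3 µM library 1 or 3, 3 members rose. Of 13 genes of Nrf1 processing and turnover, 4 rose (30.8%, near the 29.3% of all genes) and 2 fell (15.4%, against 30.8%). Their median was 0.09. Besides Nfe2l1 the risers were the p97 cofactor Nploc4 (0.44), the ligase subunit Fbxw7 (0.37) and Ngly1 (0.67), the enzyme that removes sugars from Nrf1. The ligase subunit Btrc changed by -0.63 and the deubiquitinase Usp15 by -0.34. Ddi2, the protease that cuts Nrf1, had a step of 0.08 and Vcp, which encodes p97, one of 0.04, and neither passed the test.

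The ubiquitin gene Ubb went on rising. Ubb, a polyubiquitin gene, had 2067, 2623 and 2137 CPM at 1.0 µM, against 1368, 1384 and 1178 CPM at 0.3 µM, a log2 change of 0.80 ± 0.177 (SE, adjusted p = 0.00104). Of 22 genes for ubiquitin, its transfer and p97 cofactors, 9 rose (40.9%, against 29.3% of all genes) and 2 fell (9.1%, against 30.8%), with a median of 0.14. Zfand2a, a proteasome-associated zinc finger protein, had 1024, 939 and 1144 CPM at 1.0 µM and 406, 429 and 434 CPM at 0.3 µM, a step of 1.29 after 2.86 from vehicle to 0.3 µM. Faf2 rose by 0.54 and Nsfl1c by 0.50, both p97 adaptors, whereas the conjugating enzyme Ube2d1 changed by -1.32.

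Heat shock genes went on rising. Of 26 tested, 19 rose (73.1%, against 29.3% of all genes), 2 fell (7.7%, against 30.8%) and 5 did not pass. The median was 0.73, after 23 rises and a median of 1.07 at 0.3 µM. Hspa1a (chr17:35106304-35109101, mm9), inducible HSP70, had 1628, 818 and 795 CPM at 1.0 µM and 36.7, 39.1 and 25.2 CPM at 0.3 µM. The log2 change was 5.01 ± 0.323 (SE, adjusted p = 6.78e-08), a 32.1-fold rise. Its neighbour Hspa1b had 4447, 3350 and 2724 CPM at 1.0 µM and 281, 292 and 220 CPM at 0.3 µM, with a log2 change of 3.73. The 2 genes are near-identical copies, so how the counting split their reads is uncertain for each of them. Hspb1, the small heat shock protein HSP27, had 1468, 1578 and 1114 CPM at 1.0 µM and 149, 142 and 98.7 CPM at 0.3 µM (log2 change 3.42). In all 3 the lowest library at 1.0 µM lay many fold above the highest at 0.3 µM.

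Co-chaperones followed at smaller size. Hsph1, a nucleotide exchange factor for HSP70, had 5414, 5621 and 5480 CPM at 1.0 µM and 1286, 1444 and 1224 CPM at 0.3 µM (log2 change 2.06, adjusted p = 6.6e-10). Bag3, which hands HSP70 clients to autophagy, had 704, 596 and 762 CPM at 1.0 µM and 296, 276 and 258 CPM at 0.3 µM (1.31). Hspe1 had 642, 613 and 487 CPM at 1.0 µM and 290, 344 and 290 CPM at 0.3 µM, and Chordc1 had 384, 349 and 379 CPM at 1.0 µM and 196, 193 and 186 CPM at 0.3 µM. Both carry the heat shock element printed above. Cryab, the lens and muscle small heat shock protein αB-crystallin, was 1 of 3 members not called at 0.3 µM, with Bag1 and Fkbp4. Its log2 change was -0.45 there and 2.77 at the step, with 202, 62.5 and 146 CPM at 1.0 µM and 19.6, 18.4 and 22.2 CPM at 0.3 µM. The 2 members that fell were Hsf1, the heat shock transcription factor (-0.46), and the HSP90 co-chaperone Fkbp4 (-0.57). TRiC, the ring chaperonin for actin and tubulin, had 1 of 8 subunits higher (Cct3, 0.21), 1 lower (Tcp1, -0.28) and a median of 0.05, after 7 rises at 0.3 µM. These shares, 12.5% each, stood below the 29.3% and 30.8% of all genes. The Cct3 call was lost when single libraries were left out (1.0 µM library 1 or 2, 0.3 µM library 1 or 3), and the Tcp1 call without 0.3 µM library 2.

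**Figure D2:**
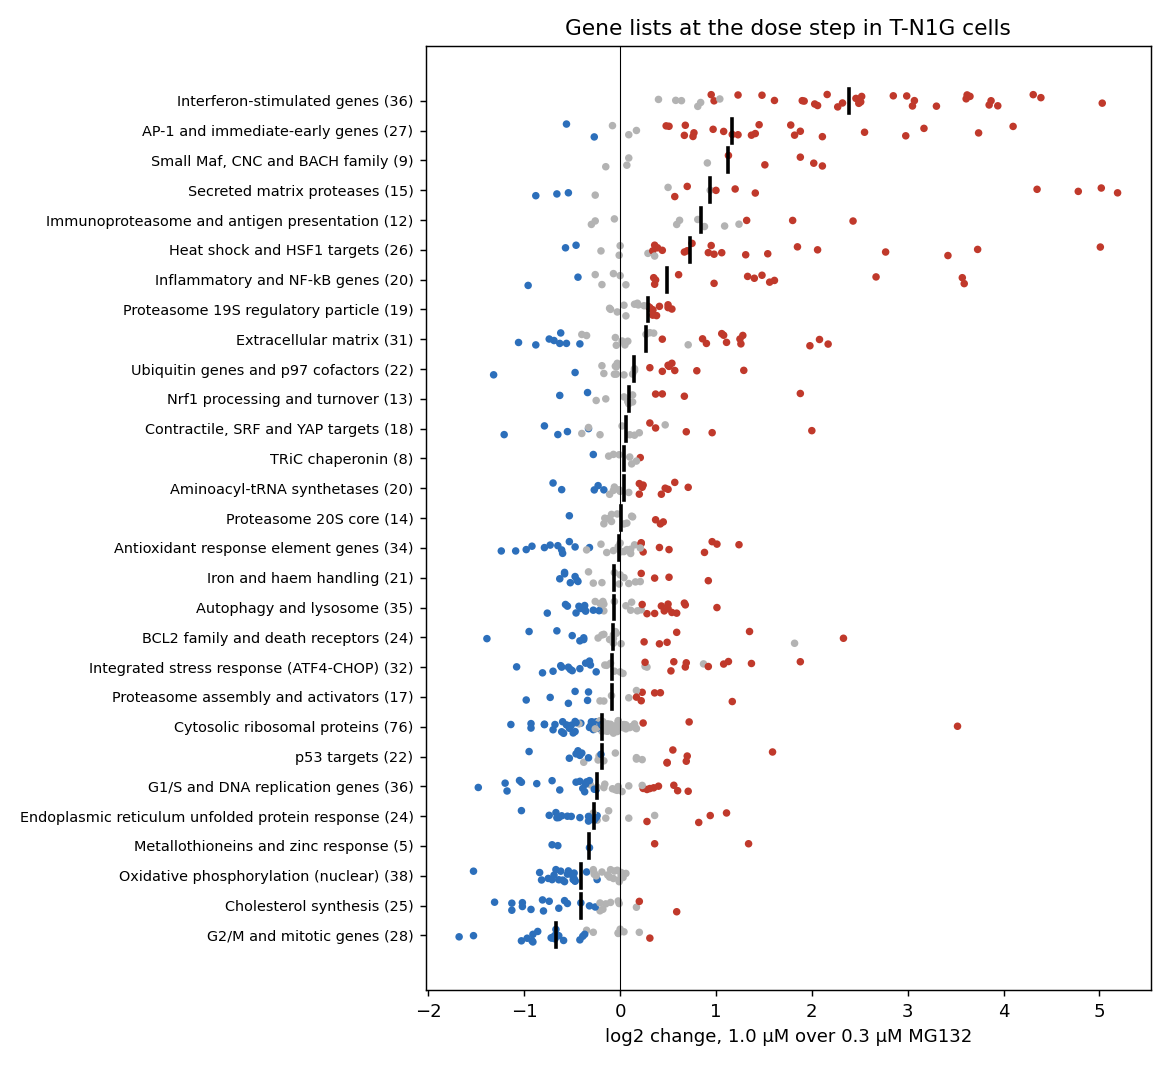
Each row is a gene list with its number of genes tested, each point a gene and the black bar the list's median of the log2 change from 0.3 µM to 1.0 µM MG132 in T-N1G cells. Red points were called higher at 1.0 µM, blue points lower and grey points were not called. List medians run from -0.66 for mitotic genes at the bottom to 2.39 for interferon-stimulated genes at the top. The interferon list was drawn up after its values were seen.

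Of 32 genes of the ATF4-led integrated stress response, 23 had risen at 0.3 µM with a median of 0.59. At the step 10 rose (31.2%) and 13 fell (40.6%), against 29.3% and 30.8% of all genes, and the median was -0.08. Atf3 went up again, to 218, 192 and 206 CPM at 1.0 µM, against 52.8, 58.8 and 55.2 CPM at 0.3 µM (log2 change 1.88 ± 0.096, SE, adjusted p = 6.6e-10). Ppp1r15a, the phosphatase subunit GADD34 that ends the response, had 499.5, 366 and 362 CPM at 1.0 µM and 185, 196 and 179 CPM at 0.3 µM (1.13). Against these, Atf4 itself had 410, 382 and 473 CPM at 1.0 µM and 552, 563 and 503 CPM at 0.3 µM, a log2 change of -0.36 after 0.98 at the lower dose. Ddit3, which encodes CHOP, had 22.8, 25.7 and 23.6 CPM at 1.0 µM and 39.7, 34.8 and 36.6 CPM at 0.3 µM (-0.62, after 1.97). Slc6a9, a glycine transporter, changed by -0.81 and Eif4ebp1, a brake on translation, by -0.70. In these 4 genes the levels at 1.0 µM lay below every library at 0.3 µM.

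Aminoacyl-tRNA synthetases, which ATF4 also controls, rose in 17 of 20 cases at 0.3 µM. At the step 9 rose (45.0%, against 29.3% of all genes) and 5 fell (25.0%, against 30.8%), with a median of 0.05. Rars (0.71), Wars (0.57) and Aars (0.43) were higher and Vars (-0.70) was lower. Of 24 genes of the unfolded protein response of the endoplasmic reticulum, 14 fell (58.3%, against 30.8% of all genes) and 4 rose (16.7%, against 29.3%), with a median of -0.27. Hyou1, a luminal chaperone, had 264, 281 and 244 CPM at 1.0 µM and 439, 452 and 425 CPM at 0.3 µM (-0.74), and the translocon subunit Sec61b changed by -1.03. Ern1, the stress sensor IRE1, rose by 0.94 and the co-chaperone Dnajb14 by 1.11. Hspa5, which encodes BiP, had 6058, 3556 and 3168 CPM at 1.0 µM and 3682, 3534 and 2761 CPM at 0.3 µM, and its step of 0.36 did not pass the test (adjusted p = 0.151).

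Antioxidant response element genes, the targets shared by Nrf1 and Nrf2, had risen in 27 of 34 cases at 0.3 µM, with a median of 0.83. At the step 9 rose (26.5%) and 12 fell (35.3%), near the 29.3% and 30.8% of all genes, with a median of -0.01. The cystine transporter Slc7a11 had 179, 119 and 218.5 CPM at 1.0 µM and 80.2, 71.1 and 67.3 CPM at 0.3 µM (1.24), and sulfiredoxin, Srxn1, had 645, 402 and 635 CPM at 1.0 µM and 302.5, 281.5 and 253 CPM at 0.3 µM (1.01). Hmox1, haem oxygenase, changed by 0.51. G6pdx, the first enzyme of the pentose phosphate pathway, fell, with 47.2, 49.7 and 52.8 CPM at 1.0 µM and 87.4, 86.7 and 84.1 CPM at 0.3 µM (-0.79, adjusted p = 5.5e-08). Pgd, the next dehydrogenase, changed by -0.60, and the glutathione transferases Gstm1 by -1.24 and Gstp1 by -1.09. Gstm genes have close copies, so reads may be split among them. Without 0.3 µM library 3, 5 members rose.

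Of 35 autophagy and lysosome genes, 23 had risen at 0.3 µM. At the step 12 rose (34.3%) and 11 fell (31.4%), shares near those of all genes (29.3% and 30.8%), with a median of -0.06. Sqstm1, the receptor p62 for ubiquitinated cargo, had 4144, 3607 and 3654 CPM at 1.0 µM and 2751, 2888 and 2800 CPM at 0.3 µM, a step of 0.43 after 3.26. The lysosomal hydrolase Gla rose by 1.01, the receptor Optn by 0.67, the proton pump subunit Atp6v1a by 0.59 and Atg16l1 by 0.54. Among the falls were Tfeb, the master regulator of lysosome genes (-0.76), Map1lc3b (-0.37) and Lamp2 (-0.37). Iron and haem genes gave 4 rises and 7 falls of 21 (33.3% lower, near the share of all genes), with a median of -0.06, among them falls of Aco1 (-0.58), Fth1 (-0.47), Fech (-0.52) and Hmox2 (-0.58). Without 1.0 µM library 3, or 0.3 µM library 2 or 3, 2 of them rose. Of 5 metal response genes, the metal sensor Mtf1 rose by 1.34 and the zinc exporter Slc30a1 by 0.36, while Mt1 (-0.32), Mt2 (-0.71) and the zinc importer Slc39a10 (-0.65) fell. The Slc30a1 call was lost without 1.0 µM library 3 or 0.3 µM library 3.

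Immediate-early genes, which respond to growth factors and stress within minutes, mostly rose at the step. Of 27 tested, 22 rose (81.5%, against 29.3% of all genes) and 2 fell (7.4%, against 30.8%). The median was 1.17, against 12 rises and a median of 0.39 at 0.3 µM. Egr1 had 671, 167 and 536 CPM at 1.0 µM and 32.3, 25.8 and 22.2 CPM at 0.3 µM (4.10 ± 0.455, SE, adjusted p = 6.91e-06), after -0.11 at the lower dose. Fos had 43.2, 23.1 and 31.9 CPM at 1.0 µM and 5.85, 5.72 and 5.21 CPM at 0.3 µM (2.55, after 0.16). Zfp36, which destabilises cytokine transcripts, had 73.6, 51.0 and 71.3 CPM at 1.0 µM and 19.6, 18.8 and 18.6 CPM at 0.3 µM (1.78). Klf6 rose by 0.77 and Jun by 0.67. In all of these, library 2 was the lowest at 1.0 µM and still lay above the 3 libraries at 0.3 µM. The falls were Jund (-0.27) and Klf2 (-0.56).

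Inflammatory and NF-κB genes rose in 13 of 20 cases (65.0%, against 29.3% of all genes) and fell in 2 (10.0%, against 30.8%), with a median of 0.49. Ptgs2, cyclooxygenase-2, had 1575, 742 and 1211 CPM at 1.0 µM and 189, 209.6 and 157 CPM at 0.3 µM (2.67, adjusted p = 5.31e-06). Il6 had 13.3, 3.72 and 10.1 CPM at 1.0 µM and 1.09, 0.556 and 0.621 CPM at 0.3 µM (3.57), and Il1a 4.42, 1.58 and 3.68 CPM at 1.0 µM and 0.297, 0.101 and 0.382 CPM at 0.3 µM (3.59). Tnfaip3, the NF-κB inhibitor A20, rose by 1.40, but Nfkbia, which encodes IκBα, had 27.0, 20 and 25.5 CPM at 1.0 µM and 53.1, 49.9 and 37.9 CPM at 0.3 µM (-0.96). Sele, an adhesion molecule of activated endothelium, had 6.69, 6.65 and 7.04 CPM at 1.0 µM and 0.347, 0.354 and 0.525 CPM at 0.3 µM (4.03).

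Secreted proteases that degrade matrix, and their inhibitors, rose in 9 of 15 cases and fell in 3, with a median of 0.94. Mmp13 (chr9:7272514-7283333, mm9) had 8.78, 5.24 and 4.23 CPM at 1.0 µM and 0.0495, 0.253 and 0.239 CPM at 0.3 µM (5.02 ± 0.423, SE, adjusted p = 8.94e-08), on 314 fragments at 1.0 µM and 11 at 0.3 µM. Serpinb2, the plasminogen activator inhibitor PAI-2, had 20.1, 5.86 and 10.6 CPM at 1.0 µM and 0.545, 0.556 and 0.669 CPM at 0.3 µM (4.35). Plau, urokinase, had fallen by 2.28 at 0.3 µM and rose by 1.41 at the step, to 24.1, 22.1 and 21.5 CPM, against 8.27, 8.15 and 9.07 CPM at 0.3 µM. Adamts5, an aggrecanase, fell by 3.57 on the log2 scale at 0.3 µM and fell by a further 0.66 at the step. Its levels were 404, 395 and 443 CPM with vehicle, 31.7, 36.5 and 36.3 CPM at 0.3 µM and 21.4, 23.1 and 21.7 CPM at 1.0 µM.

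With all libraries in the fit, most interferon-stimulated genes of the list rose at the step. The list was drawn up after their values had been seen, so its count and median are no support of their own. Of 36 genes, 30 rose at the step (83.3%, against 29.3% of all genes) and none fell, with a median of 2.39, whereas 3 were called higher at 0.3 µM, with a median of -0.06. Rsad2 (chr12:27127608-27141317, mm9) had 35.0, 23.2 and 126 CPM at 1.0 µM and 3.22, 2.43 and 3.10 CPM at 0.3 µM (4.39 ± 0.681, SE, adjusted p = 0.000107). Oasl1, an oligoadenylate synthetase homologue, had 73.9, 80.1 and 174.5 CPM at 1.0 µM and 17.2, 19.2 and 20.8 CPM at 0.3 µM (2.52). Isg15, a ubiquitin-like modifier, had 23.7, 9.30 and 40.1 CPM at 1.0 µM and 6.54, 3.84 and 4.25 CPM at 0.3 µM (2.32). Gbp9 and Gbp6, guanylate-binding proteins with close paralogues, and Zbp1, a sensor of nucleic acids, are among the 12 largest rises of the step, on 10, 29 and 20 fragments at 0.3 µM. Ifnb1, the gene of interferon beta, was under 1 CPM in all 6 libraries.

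The size of these rises depended on the library. All 36 genes were highest in library 3 among the 1.0 µM libraries, and 31 were highest in library 1 among the 0.3 µM libraries. Their summed levels were 1119, 748 and 2515 CPM at 1.0 µM and 634, 434 and 491 CPM at 0.3 µM. The sums did not overlap, but library 3 at 1.0 µM was more than 2 times either of the other libraries at that dose. Without 1.0 µM library 3, 16 of 36 rose, none fell and the median was 1.48. Without 0.3 µM library 2 or 3, 19 rose. Mock libraries at 1.0 µM had summed levels of 1218, 521 and 1851 CPM, with 35 of 36 genes highest in their own library 3. What sets library 3 apart was not tested. Antigen presentation and immunoproteasome genes, many of them also interferon targets, gave 3 rises of 12 (25.0%, near the 29.3% of all genes). No member fell and the median was 0.85. The risers were Tap2, Nlrc5 and Psmb8. With a replicate block 7 rose. Without 1.0 µM library 2 the count was 8 and without 0.3 µM library 1 it was 6, and the Psmb8 call was lost in 4 of 6 fits that left out 1 library (1.0 µM library 1 or 3, 0.3 µM library 2 or 3).

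**Figure D3:**
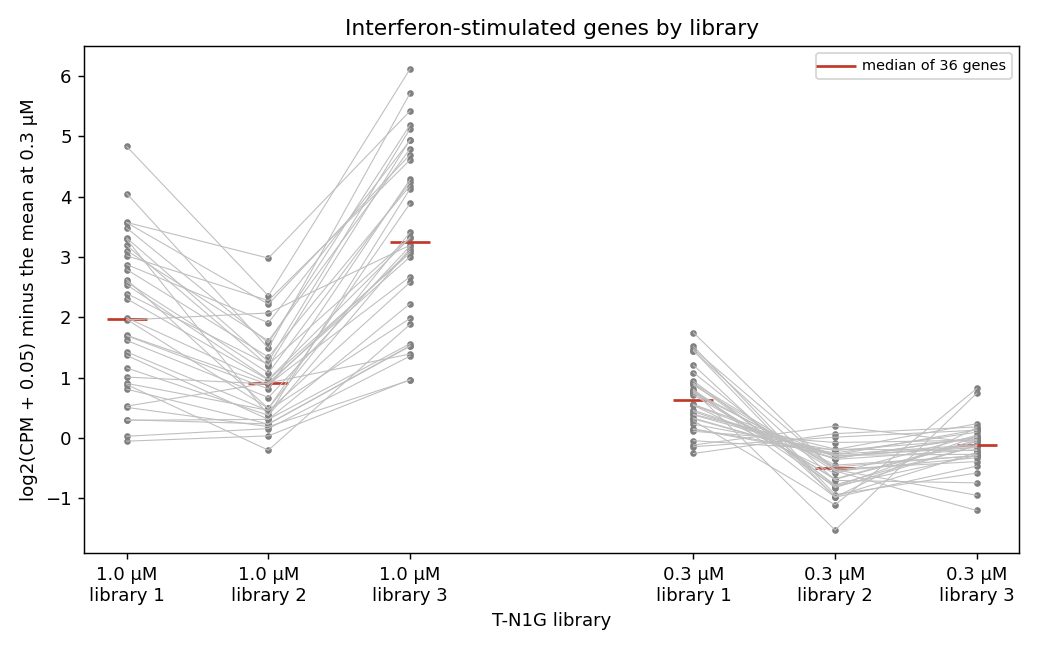
Each grey line joins the values of 1 of 36 interferon-stimulated genes in the 3 T-N1G libraries at 1.0 µM MG132 (left) and the 3 at 0.3 µM (right), as log2 (CPM + 0.05) minus the gene's mean at 0.3 µM. Red bars are medians over the 36 genes, and library 3 at 1.0 µM, with a summed level of 2515 CPM, stands above libraries 1 and 2 with 1119 and 748 CPM.

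Mitotic genes fell at both doses. Of 28 G2/M genes, 20 fell at 0.3 µM with a median of -0.50. At the step 20 fell (71.4%, against 30.8% of all genes) and 1 rose (Mki67, 0.31), which is 3.6% against 29.3%, with a median of -0.66. Ube2c (chr2:164595429-164598402, mm9) had 17.6, 26.7 and 17.1 CPM at 1.0 µM and 62.7, 65.9 and 67.5 CPM at 0.3 µM (-1.68 ± 0.117, SE, adjusted p = 1.61e-08). Aurkb, a kinase of chromosome segregation, had 10.3, 15.2 and 10.2 CPM at 1.0 µM and 30.7, 35.6 and 37.2 CPM at 0.3 µM (-1.53). Ccnb1, cyclin B1, changed by -1.03 and Prc1, a protein of the central spindle, by -0.71. The tubulin gene Tuba1b, one of the 12 largest falls, had 66.1, 92.6 and 59.4 CPM at 1.0 µM and 239, 274 and 252 CPM at 0.3 µM (-1.81).

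Genes of G1/S and DNA replication gave 17 of 36 lower (47.2%, against 30.8% of all genes) and 8 higher (22.2%, against 29.3%). Their median was -0.24, after a median of 0.06 at 0.3 µM. Ccnd1, cyclin D1, had 12.0, 24.6 and 9.92 CPM at 1.0 µM and 30.1, 36.4 and 40.5 CPM at 0.3 µM (-1.20), and Cdk2 changed by -1.03, Gins1 by -0.87 and Rfc5 by -0.71. Of 22 p53 targets 6 rose (27.3%) and 8 fell (36.4%), against 29.3% and 30.8% of all genes, with a median of -0.19: Gadd45a (0.70) and Mdm2 (0.69) were higher, and Bbc3 (-0.95) and Ei24 (-0.46) lower. Of 24 BCL2 family and death receptor genes 6 rose (25.0%) and 7 fell (29.2%), also near those shares, with a median of -0.07. Among the pro-apoptotic members, Bcl2l11, which encodes BIM, had 48.0, 50.3 and 43.1 CPM at 1.0 µM and 18.1, 19.9 and 17.3 CPM at 0.3 µM (1.35), while Bok changed by -1.39 and Bbc3, which encodes PUMA, by -0.95. Mcl1, an anti-apoptotic member, rose by 0.59.

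Lists of lipid, mitochondrial and ribosomal genes held more falls than rises at the step. Cholesterol synthesis had fallen in 19 of 25 genes at 0.3 µM with a median of -0.67. At the step 15 fell (60.0%, against 30.8% of all genes) and 2 rose (8.0%, against 29.3%), with a median of -0.41. Ebp (-1.13), Dhcr7 (-1.02) and Acat2 (-1.13) fell. Hmgcs1 is listed at 0 in all libraries. Nuclear genes of oxidative phosphorylation gave 21 falls (55.3%, against 30.8% of all genes) and no rise among 38, with a median of -0.41. At 0.3 µM they had 9 rises, 8 falls and a median of 0.02. Cox7b, a subunit of complex IV, had 23.8, 25.0 and 16.4 CPM at 1.0 µM and 59.7, 67.5 and 61.4 CPM at 0.3 µM (-1.53), and Atp5d, Ndufv2 and Sdhc changed by -0.69, -0.62 and -0.55. Of 76 cytosolic ribosomal protein genes 30 fell (39.5%, against 30.8% of all genes) and 3 rose (3.9%, against 29.3%), with a median of -0.19. Among the falls were Rpl21 (-1.14), Rpl37a (-0.93), Rpl38 (-0.70) and Rpl10 (-0.59). Ribosomal protein genes have many near-identical copies, so single values are uncertain. In the fit of the 2 groups alone 17 ribosomal genes fell, and without 0.3 µM library 3 there was 1 rise.

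Of 31 matrix genes tested, 19 had fallen at 0.3 µM with a median of -0.73. At the step 12 rose (38.7%) and 8 fell (25.8%), against 29.3% and 30.8% of all genes, with a median of 0.27. Thbs1, thrombospondin-1, had 3415, 2617 and 2008 CPM with vehicle, 578, 503 and 323 CPM at 0.3 µM and 2495, 1114 and 1910 CPM at 1.0 µM. It fell by 2.52 on the log2 scale at 0.3 µM and rose by 1.98 at the step (adjusted p = 0.000295), and at 1.0 µM library 1 lay within the vehicle range and libraries 2 and 3 below it. Col8a1, a short-chain collagen, had 78.6, 66.0 and 65.5 CPM with vehicle, 12.4, 9.81 and 8.69 CPM at 0.3 µM and 25.9, 19.8 and 28.2 CPM at 1.0 µM. Postn, periostin, rose by 1.08. Among fibrillar collagens, Col1a1 (-0.62), Col1a2 (-0.88) and Col3a1 (-0.69) fell, and Col5a1 (0.08) and Col5a2 (-0.35) did not pass the test. Col1a2 had 798, 1297 and 618 CPM at 1.0 µM and 1766, 1698 and 1522 CPM at 0.3 µM, after a change of -0.99 at the lower dose. Sparc, a collagen-binding protein, changed by -1.06 and Timp2, a metalloproteinase inhibitor, by -0.74.

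Contractile genes and targets of SRF and YAP gave 5 rises and 5 falls of 18 (27.8% each, against 29.3% and 30.8% of all genes), with a median of 0.06, after 12 falls at 0.3 µM. Ctgf, a YAP target, had 2463, 747 and 1017 CPM at 1.0 µM and 453, 381 and 221 CPM at 0.3 µM (2.00, adjusted p = 0.00563). Calponin 2, Cnn2, had 95.1, 135 and 119.5 CPM at 1.0 µM and 297, 281 and 229.9 CPM at 0.3 µM (-1.21), and tropomyosin Tpm2, the receptor kinase Axl and filamin Flna changed by -0.79, -0.65 and -0.55.

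What the higher dose added, extended or reversed was then read gene by gene, for the 6 genes in each of 4 classes whose smaller change was largest. Rises extended by a further rise were Hspa1a, Hspa1b, Hspb1, Mmp13, Sele and Serpinb2, described above. Hspb1, for example, had 11.9, 10.8 and 11.1 CPM with vehicle before the values at both doses. Falls extended by a further fall were Cd248, Sfrp1, S100a4, Sdpr, Rnaseh2c and S100a11. Cd248, endosialin of mesenchymal cells, had 173, 130 and 149 CPM with vehicle, 38.2, 28.1 and 25.5 CPM at 0.3 µM and 6.32, 8.85 and 7.75 CPM at 1.0 µM. S100a4, a calcium-binding protein, had 234, 237 and 243 CPM with vehicle, 41.4, 41.7 and 40.0 CPM at 0.3 µM and 8.35, 19.2 and 6.07 CPM at 1.0 µM. Vehicle libraries of both genes lay above all others, and separation of 1.0 µM from 0.3 µM was a condition of the choice.

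Rises that the higher dose took back were Gsta4, Ifi30, Manba, Atp5sl, Slc6a9 and Polr3e. Gsta4, a glutathione transferase for lipid aldehydes, had 9.41, 11 and 8.79 CPM with vehicle, 25.8, 29.5 and 35.1 CPM at 0.3 µM and 9.21, 16.3 and 20.2 CPM at 1.0 µM. Ifi30, a lysosomal thiol reductase, had 61.1, 57.1 and 58.2 CPM with vehicle, 108, 105 and 118 CPM at 0.3 µM and 63.6, 60.2 and 54.0 CPM at 1.0 µM, so that its rise of 0.91 was followed by a change of -0.90 (adjusted p = 1.39e-07) and 1.0 µM differed from vehicle by 0.01. Manba, lysosomal beta-mannosidase, gave 0.83 and then -0.83. Polr3e, a subunit of RNA polymerase III, gave 1.01 and then -0.81, and Slc6a9 gave 1.17 and then -0.81.

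Falls that the higher dose took back were Fat4, Adamtsl1, Thbs1, Rasgrp3, Tnfsf18 and Plekha6. Fat4, an atypical cadherin, had 7.74, 6.21 and 9.94 CPM with vehicle, 1.04, 0.809 and 0.621 CPM at 0.3 µM and 9.40, 3.50 and 7.75 CPM at 1.0 µM (-3.27 and then 3.05). Rasgrp3, an activator of Ras, had 14.5, 13.8 and 9.94 CPM with vehicle, 3.22, 3.24 and 4.15 CPM at 0.3 µM and 19.5, 16.7 and 13.1 CPM at 1.0 µM (-1.85 and then 2.21). Tnfsf18, a ligand of the TNF family, went past its starting level, with 1.11, 1.38 and 1.61 CPM under vehicle, 0.248, 0.506 and 0.478 CPM at 0.3 µM and 10.6, 3.61 and 6.83 CPM at 1.0 µM. Both changes of these classes use the 0.3 µM libraries, and an error in those libraries would move them in opposite directions. Genes of these classes were chosen with the 1.0 µM libraries apart from those at 0.3 µM, so that separation was fixed by the choice. In Ifi30 and Rasgrp3 each 0.3 µM library also lay outside the vehicle range.

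**Figure D4:**
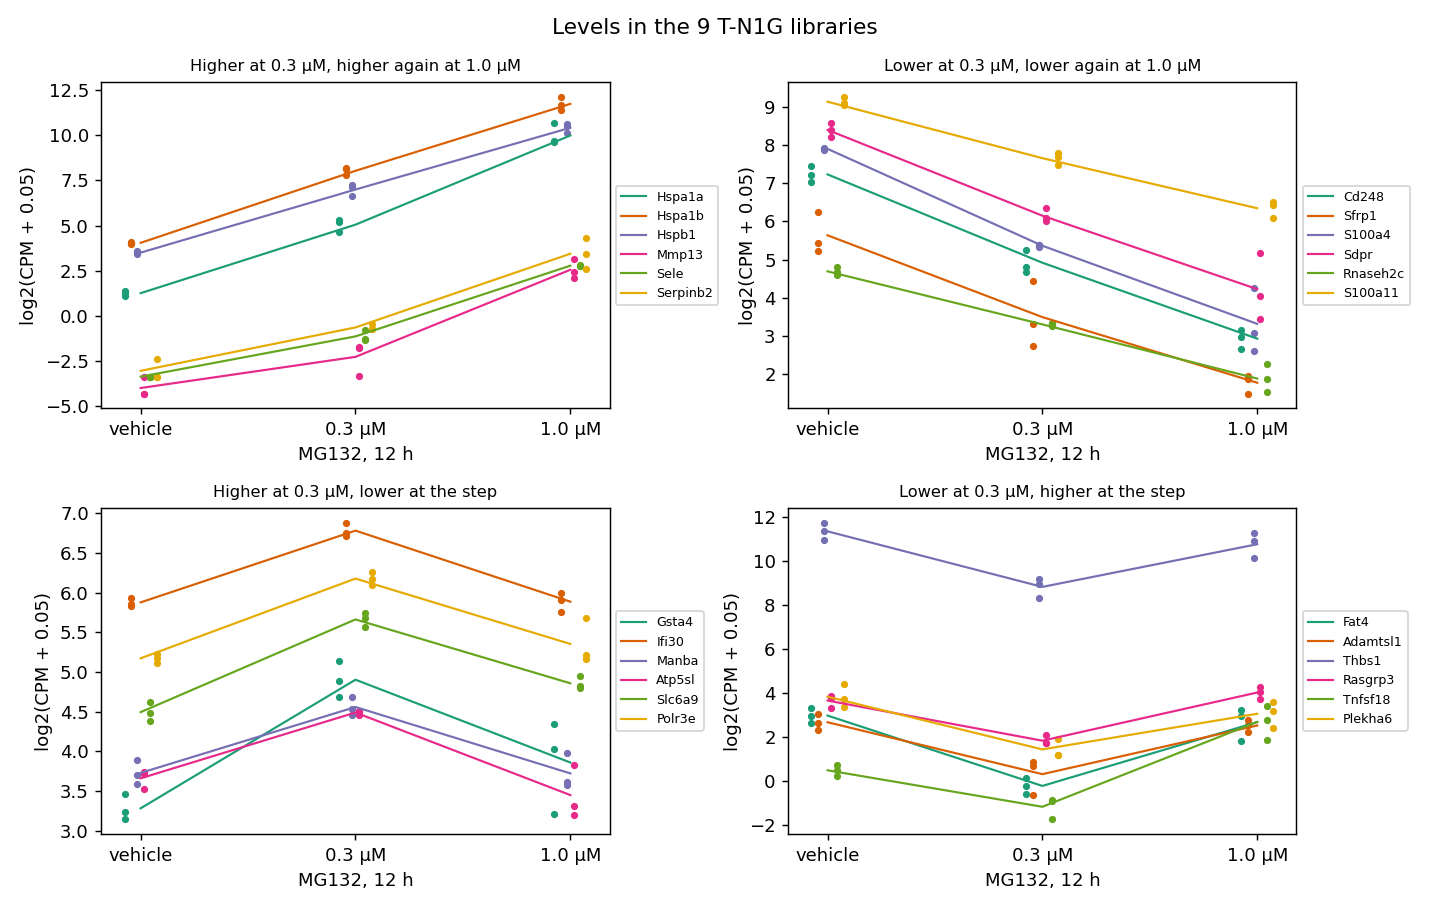
Points are the 9 T-N1G libraries and lines join the means of log2 (CPM + 0.05) at vehicle, 0.3 µM and 1.0 µM MG132 (12 h), for 6 genes in each of 4 classes. In the upper panels the second dose extends the change of the first, as in Hspb1 and Cd248, and in the lower panels it takes the change back, as in Ifi30 (rise of 0.91, then -0.90) and Fat4 (-3.27, then 3.05).

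Among the largest changes that belong to no list above, Prdm1, a transcriptional repressor of lymphocyte differentiation, had 7.80, 2.93 and 5.42 CPM at 1.0 µM and 0.297, 0.0506 and 0.143 CPM at 0.3 µM (4.98). Dntt, the template-independent DNA polymerase of lymphocytes, had 13.6, 2.26 and 9.86 CPM at 1.0 µM and 0.446, 0.253 and 0.478 CPM at 0.3 µM (4.42). These 2 rest on 10 and 24 fragments at 0.3 µM, so their fold changes are imprecise. The larger falls included Rassf7 (-2.19), a Ras-association protein, with 1.97, 2.42 and 2.06 CPM at 1.0 µM and 8.57, 10.9 and 10.1 CPM at 0.3 µM, and Hmgn2 (-1.82), a nucleosome-binding protein, with 20.7, 40.5 and 16.7 CPM at 1.0 µM and 77.8, 100.4 and 96.3 CPM at 0.3 µM. Sfrp1, a secreted Wnt antagonist, changed by -1.89, Arhgef39 by -1.79 and the proton pump subunit Atp6v0e2 by -1.63. Rpl37rt changed by -2.29, but it is a retrotransposed copy of Rpl37, so its reads cannot be assigned with certainty.

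Whether the step differed in T-N1G cells from that in mock cells was tested directly. In mock cells 2895 genes (21.8%) rose and 3682 (27.8%) fell at the same step, 49.6% in all. The difference of the steps passed the test in 914 genes (6.89%) in the direction of a higher value in T-N1G cells and in 742 genes (5.60%) in the other. These counts moved by over 1.5 times when single libraries were left out: the first was 482 without T-N1G 0.3 µM library 3, 589 without T-N1G 1.0 µM library 1, and 597 and 590 without mock 0.3 µM libraries 1 and 2, and the second was 1445 without T-N1G 1.0 µM library 2, and 444 and 465 without mock 0.3 µM libraries 1 and 2. In the fit of those 4 groups alone they were 452 and 247, and with a replicate block 1139 and 1051. Which direction held more genes depended on the libraries, the filter, the scaling and the test. Library size alone (725 and 836) and DESeq2 (1035 and 1064) gave a larger second count. The second count was the larger one without T-N1G 1.0 µM library 1 (589 and 737), library 2 (1360 and 1445) or library 3 (806 and 1078), without T-N1G 0.3 µM library 3 (482 and 632), without mock 1.0 µM library 1 (742 and 1109) or library 2 (687 and 921), and with no filter on low counts (574 and 855).

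Proteasome subunit genes were among those whose step differed. The counts that follow stand against 6.89% of all genes that differed upward and 5.60% that differed downward. Among 19S genes 6 of 19 differed, all with a higher step in T-N1G cells, and the median step of the list was 0.29 in T-N1G cells and -0.10 in mock cells. Among 20S genes 1 of 14 differed, Psma5, with steps of 0.12 and -0.61. Among 17 assembly factors 6 differed upward and 2 downward, and among 13 Nrf1 processing genes 5 differed upward. Nfe2l1 is counted among the last, and its reads in T-N1G cells include those of the fusion. It had the largest difference among them, 2.13 ± 0.179 (SE, adjusted p = 8.03e-06). Of 26 heat shock genes 6 differed upward and 1 downward, with Hspa1a at 1.97 and Hspa1b at 1.15. Mock cells had 1046, 756 and 619 CPM of Hspa1a at 1.0 µM and 122, 73.2 and 100.3 CPM at 0.3 µM, so the lines were closer at the higher dose than at the lower one. Stress response genes differed downward in 7 of 32 cases and G1/S genes in 9 of 36, with 1 upward. The median G1/S step was -0.24 in T-N1G cells and 0.11 in mock cells. Interferon-stimulated genes had median steps of 2.39 in T-N1G cells and 2.53 in mock cells.

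Genes named for the difference were also called at the step in T-N1G cells. Their mean there was 5 CPM or more at 1 or both doses. Among genes that met these conditions, the largest differences upward were in Kif1a, a kinesin of axonal transport, and Acer2, a Golgi ceramidase. At lower levels, differences of larger size were called, such as 3.14 for Pecam1 and -5.22 for Nefl. Kif1a had 18, 7.78 and 22.3 CPM at 1.0 µM and 6.89, 3.19 and 2.82 CPM at 0.3 µM in T-N1G cells, against 2.14, 0.581 and 2.93 CPM at 1.0 µM and 4.47, 2.74 and 2.1 CPM at 0.3 µM in mock cells. Its difference of 2.60 ± 0.759 (SE, adjusted p = 0.0367) was lost when any of these T-N1G libraries was left out (1.0 µM library 1 or 3, 0.3 µM library 2 or 3). Acer2 had 8.04, 4.85 and 8.45 CPM at 1.0 µM and 0.842, 0.809 and 0.812 CPM at 0.3 µM in T-N1G cells, and 0.902, 0.898 and 0.768 CPM at 1.0 µM and 0.893, 0.538 and 0.341 CPM at 0.3 µM in mock cells (2.58, adjusted p = 0.0013). The glucose transporter Slc2a3 had 28.9, 18.4 and 18.7 CPM at 1.0 µM and 6.64, 6.37 and 7.45 CPM at 0.3 µM in T-N1G cells, and 3.66, 4.38 and 5.37 CPM at 1.0 µM and 4.76, 4.65 and 5.07 CPM at 0.3 µM in mock cells. In Acer2 and Slc2a3 the mock libraries of both doses all lay below the T-N1G libraries at 1.0 µM.

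Differences in the other direction came from falls in T-N1G cells or from larger rises in mock cells. Msln, mesothelin, fell in T-N1G cells, with 10.4, 9.08 and 6.12 CPM at 1.0 µM and 31.7, 44.4 and 37.3 CPM at 0.3 µM, and mock cells had 39.9, 84.6 and 31.1 CPM at 1.0 µM and 48.8, 51.7 and 61.2 CPM at 0.3 µM. F2rl1, a protease-activated receptor, had 5.47, 7.78 and 6.50 CPM at 1.0 µM and 11.5, 16.5 and 14.5 CPM at 0.3 µM in T-N1G cells, and 50.1, 51.3 and 51.6 CPM at 1.0 µM and 32.1, 33.0 and 43.1 CPM at 0.3 µM in mock cells, where it rose by 0.50. Sdpr, a caveolar coat protein, and Epb4.1l4a fell in T-N1G cells likewise. Sema3a, an axon guidance cue, rose in both lines, by 0.78 in T-N1G cells and 2.40 in mock cells. Map3k19, a kinase, also rose in both, by 1.92 in T-N1G cells and 4.14 in mock cells. Its mock libraries were at 0.0496, 0.0489 and 0.0488 CPM at 0.3 µM and 1.30, 1.21 and 0.432 CPM at 1.0 µM. With so few mock fragments at 0.3 µM, the mock step and the difference are imprecise.

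**Figure D5:**
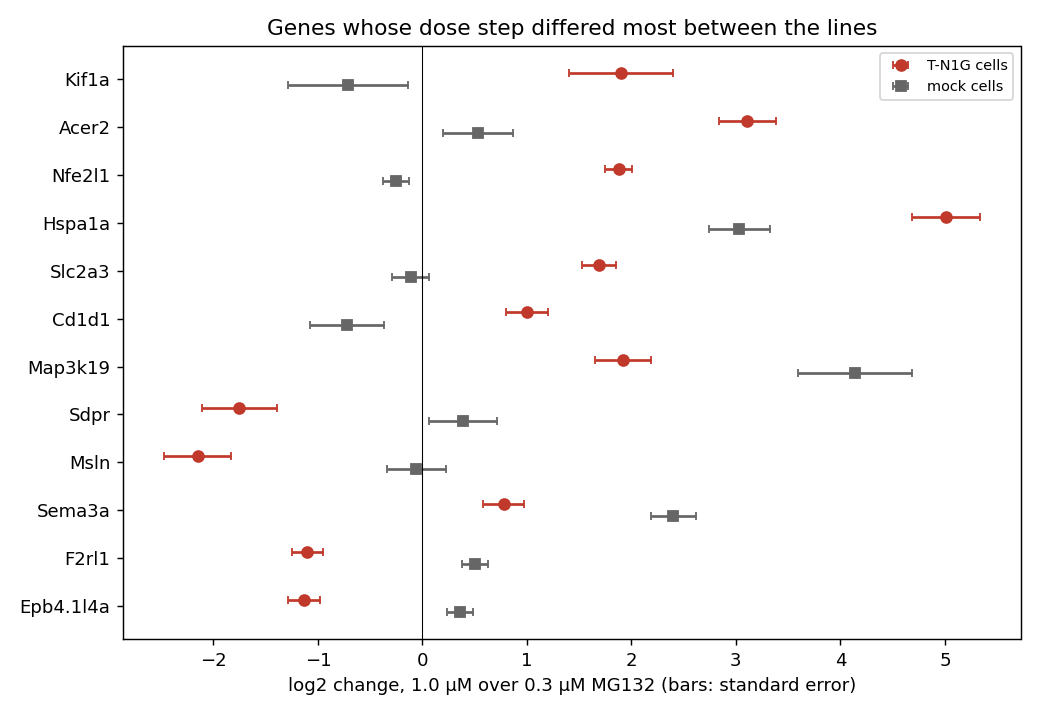
Points are the log2 change from 0.3 µM to 1.0 µM MG132 in T-N1G cells (red circles) and mock cells (grey squares), with bars for the standard error, for the 12 genes named for the largest differences between the lines. These were taken among genes also called at the step in T-N1G cells, with a mean of 5 CPM or more there at 1 or both doses. Nfe2l1 rose by 1.88 in T-N1G cells and had a step of -0.25 in mock cells, and Sema3a shows the smaller rise in T-N1G cells, at 0.78 against 2.40.

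The direction of the step varied with transcript length. Lengths from the GENCODE annotation were matched by symbol for 12766 genes (96.3%), which were divided into 5 equal classes. In the shortest class, 82 to 1984 bases, 19.5% of genes rose and 36.2% fell, with a median of -0.15. In the longest, from 5283 bases, 42.3% rose and 20.5% fell, with a median of 0.20. The classes between had medians of -0.09, -0.04 and 0.04. In mock cells the medians were -0.12 in the shortest class and 0.12 in the longest. From vehicle to 0.3 µM in T-N1G cells they were -0.04 and -0.06. The part of transcript length in the results on single lists was not tested.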

How the data were processed

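RNA-seq was measured in 18 libraries. Per the labels' protocols, a spin-column kit gave total RNA, and poly(A)-tailed RNA went into strand-specific libraries. The submitters' processing notes name TopHat2 2.0.8b, Cuffdiff 2.1.1, bcl2fastq 2.16.0.10 and build mm9. The sources used here do not give the annotation or the strand setting of the counting, so reads of overlapping and antisense genes may not be separated. Per the file headers, each gene has, for every library, an unscaled estimated count of fragments and an FPKM that the authors' Cuffdiff run scaled. The FPKM deposited by the authors entered no test. Of the estimated counts deposited by the authors, 98.16% to 98.51% per library were whole within 1e-06, and all were rounded. Of the 24318 genes, 2 without a usable count in every library were dropped. Some single genes are not reported here. For 20 more, including Nfe2l1, the FPKM estimate failed in some library, and the counts were kept. Line, dose and library number were read from Cuffdiff's condition names and order, a link to the sample titles that the files do not state.

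Tests used the quasi-likelihood F test of edgeR 4.0.16 under R 4.3.3, with TMM scaling, the default expression filter and robust dispersion, in 1 fit of 6 group means over 18 libraries, Benjamini-Hochberg adjusted over 13258 genes and called under 0.05. All groups share 1 estimate of spread. Every adjusted p is from this test. Standard errors are the size of the log2 change over the square root of F. Intervals of counting error were not computed, since reads carry no molecular identifiers and replicates give the error. The statistics were tested on simulated data. In the T-N1G groups compared, no pair of libraries agreed within sampling noise (chi-square over degrees of freedom 6.32 or more), so none was counted as a duplicate.

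Same-numbered libraries of 1.0 µM and 0.3 µM did not deviate together in T-N1G cells (r = 0.171, 0.172 and 0.0636). Those of 0.3 µM and vehicle did (r = 0.607, 0.564 and 0.470), and so did those of both lines at 1.0 µM (0.637, 0.687 and 0.798). Both lines at 0.3 µM did not (0.155, -0.0796 and 0.0371). The step was fitted without the block, as was the rest, and blocked counts for the difference between lines and for 0.3 µM against vehicle are given as alternatives.

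The named genes are Nfe2l1, Mafg, Maff and Mafk. To these come the 12 largest rises and 12 largest falls among called genes whose groups do not overlap. Their mean is 5 CPM or more at 1 or both doses, so a rise can pass through its level at 1.0 µM alone. Under the same conditions come 6 genes in each of 4 classes by both doses. For the difference between lines come 6 in each direction, among genes also called at the step in T-N1G cells and with the same 5 CPM minimum. Last come up to 4 per list with the smallest p. Pseudogenes and unnamed models were passed over, and further list members are named to fill out a count. The members, 34 lists and rules were chosen with earlier results of these data known, and 1 further list, of interferon genes, after its values were seen. Alternatives were other scaling (library size, DESeq2 size factors), no filter, the groups compared alone, the 9 T-N1G libraries, a replicate block, DESeq2 1.42.0, and leaving out each library. Leaving out the number 3 libraries at 1.0 µM in both lines was added after seeing the data.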

Additional observations from a re-analysis of the deposited data

Results flagged for a closer look

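The step from 0.3 µM to 1.0 µM differed between T-N1G and mock cells, by the test of the difference itself, in 914 genes with a higher and 742 with a lower step in T-N1G cells. Among the 12 genes named for it, the log2 difference (T-N1G minus mock) was 2.60 for Kif1a, 2.58 for Acer2, 2.13 for Nfe2l1, 1.97 for Hspa1a, 1.79 for Slc2a3 and 1.72 for Cd1d1. It was -2.22 for Map3k19, -2.13 for Sdpr, -2.10 for Msln, -1.61 for Sema3a, -1.60 for F2rl1 and -1.49 for Epb4.1l4a. The Map3k19 value rests on very few mock fragments at 0.3 µM. Groups of 3 libraries were not tested for single outlying samples.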

How the results depend on the processing

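No named gene's called change reversed under the alternatives run. The balance of calls at the step did turn, from more falls to more rises, with DESeq2 size factors in edgeR (4187 rises and 3692 falls) and in DESeq2 (4136 and 3721). It also turned, by a small margin, with only the groups compared in the fit (3139 and 3120). The median over all genes in DESeq2 was 0.04 in place of -0.01. The median of antioxidant genes, -0.01, was 0.03 with DESeq2 size factors in edgeR and in DESeq2, and 0.02 without 0.3 µM library 1. That of stress response genes, -0.08, was 0.02 without 1.0 µM library 2. With 1 library left out, genes higher at the step numbered 3420 to 4076 and genes lower 3687 to 4198. From vehicle to 0.3 µM the ranges were 3579 to 3712 and 3458 to 3646, and for the difference between lines 482 to 1360 and 444 to 1445. With only the groups compared in the fit, the difference was called in 452 and 247 genes, and with no filter on low counts in 574 and 855. Library size alone gave 725 and 836, and DESeq2 gave 1035 and 1064. Requiring 2-fold or more left 1422 and 487 genes at the step, 950 and 1212 at 0.3 µM, and 130 and 89 for the difference. DESeq2 called 7857 genes at the step, 7518 of them shared with edgeR in the same direction. Library size alone gave 3355 rises and 4660 falls and a median of -0.08 over all genes. A replicate block, with numbers that did not pair the libraries of the step, gave 4005 and 4264 there, 7 rises among antigen presentation genes in place of 3, 4015 and 4202 genes at 0.3 µM, and 1139 and 1051 for the difference. It changed no call of the 170 gene changes named. Those kept their side of the threshold in 164 to 170 cases in each alternative. Without the number 3 libraries at 1.0 µM in both lines, 19 of 36 interferon genes rose. Depth limits genes with few fragments at 0.3 µM, whose fold changes depend on the prior count.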

Other observations

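Several large values rest on genes with near-identical copies and moved with single libraries. All genes named here were chosen after their values were seen. Oaz1-ps, a pseudogene of antizyme, had 0.307, 0 and 32.3 CPM at 1.0 µM and 274, 269.5 and 194 CPM at 0.3 µM in T-N1G cells. Amd1 had 0.307, 0.507 and 45.5 CPM at 1.0 µM and 0.149, 0.101 and 0.143 CPM at 0.3 µM, and 25.4 CPM in vehicle library 2. Rpl26 had 2.58, 2.82 and 31.9 CPM at 1.0 µM and 2.23, 1.06 and 0 CPM at 0.3 µM. How reads were allotted among copies was not tested.

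Muscle transcripts moved in both directions at low levels. Ckm, muscle creatine kinase, had 0.0614, 0 and 0.0542 CPM at 1.0 µM and 0.694, 3.09 and 1.24 CPM at 0.3 µM, and Myh4, a fast myosin chain, had 0, 0.226 and 0.217 CPM at 1.0 µM and 1.63, 6.07 and 2.1 CPM at 0.3 µM. Myh3, the embryonic myosin chain, rose, with 1.72, 1.30 and 1.90 CPM at 1.0 µM and 0.495, 0.455 and 0.525 CPM at 0.3 µM (1.72, adjusted p = 0.00137). Grhl2, an epithelial transcription factor, rose, with 5.77, 7.78 and 8.45 CPM at 1.0 µM and 1.78, 2.78 and 2.48 CPM at 0.3 µM (1.64, adjusted p = 0.00018).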
